A study of Rattus norvegicus with 9 samples.

Results

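Loss of the ovaries without exercise was compared with a sham operation in the rat tibia. The NE/Ovx group (3 rats) and the Sham group (3 rats) make up 6 of the 9 RNA-seq libraries of the study, and every gene in the count tables was considered, 22589 in all. Genes of fat cells, bone matrix, cartilage, osteoblasts and osteoclasts were set aside as 4 lists, so that the other genes and cell types of the bone could be described. All rats were female Sprague-Dawley, 9 weeks old when purchased and operated on after 1 week of feeding. The NE/Ovx operation was a bilateral ovariectomy. The Sham operation spared the ovaries and took only a little of the fat around them. Neither group climbed the ladder. The RE/Ovx group was ovariectomized and then trained by climbing with a load. It was not compared here, but entered the filter on low counts, the normalization and the estimate of the spread between rats. Left tibias were collected 24 weeks after the operation and cleaned of skin, muscle, ligament and tendon. RNA depleted of ribosomal RNA was sequenced from the whole bone, so each library mixes bone, cartilage, vessels, nerve and marrow. Skeletal muscle genes still took 0.683% to 2.25% of the counts of a rat.

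The ovaries are the main source of estrogen in the rat, and their removal is a standard model of bone loss after menopause. The tibia of an adult rat holds red marrow, where stem cells give rise to red cells, platelets, neutrophils, monocytes and B lymphocytes among stromal cells, fat cells and thin-walled vessels. B lymphocytes begin as progenitors that rearrange their antibody genes, and estrogen is known to restrain this early step. Megakaryocytes release platelets, and neutrophils pack their granules in a fixed order as they mature. In bulk RNA a lower level of a marker can mean fewer cells of its type or less RNA per cell. Levels are relative to the whole library, so it can also mean a larger share of RNA from other tissue. These cannot be told apart here.

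Each library held 12297992 to 16671533 counted reads, and 16405 to 16809 genes had at least 1 read in a rat. Of the listed genes 18423 had any count and 14520 were tested. Levels are given as CPM, the read count scaled to the library size after TMM normalization. Bone and marrow genes were abundant in every rat. Col1a1, the main collagen of bone, was at 5239 to 7466 CPM in Sham and 14462 to 23781 CPM in NE/Ovx rats, and Hba1, an alpha globin, at 14485 to 24165 CPM over both groups. Gapdh, the reference of the study's RT-qPCR, overlapped between the groups (log2 fold change 0.13, adjusted p = 0.752 by edgeR). Along the first principal component (36.6% of the variance) the groups separated, and along the second (20.5%) Sham rat 12 stood apart. Libraries of 3 rats deviated in a group of genes. Sham rat 12 was low in B cell genes, Sham rat 8 was low in skeletal muscle genes, which took 0.683% of its counts against up to 2.25% elsewhere, and NE/Ovx rat 6 was high in interferon response genes. The values without these rats are given beside the results they touch.

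Compared with the Sham group, 149 genes rose and 29 fell in the NE/Ovx group at a Benjamini-Hochberg adjusted p under 0.05 by edgeR's quasi-likelihood test, which is 1.03% and 0.2% of the tested genes. At the thresholds that the study used (unadjusted p under 0.05 and a fold change above 1.2 or below 0.83), 11.3% of the genes were higher and 6.52% lower. Groups did not overlap for 13.9% of the genes with NE/Ovx higher and for 11.4% with NE/Ovx lower. The median log2 fold change of all tested genes was 0.0029. Of the genes that rose, 35 stood on the 4 lists set aside, among them Adipoq, the fat cell hormone adiponectin, and 114 did not. None of the genes that fell stood on them. The genes that fell changed less, with a median absolute log2 fold change of 0.65 against 1.06 for the 114, and 4 of them exceeded 1.

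**Figure D1:**
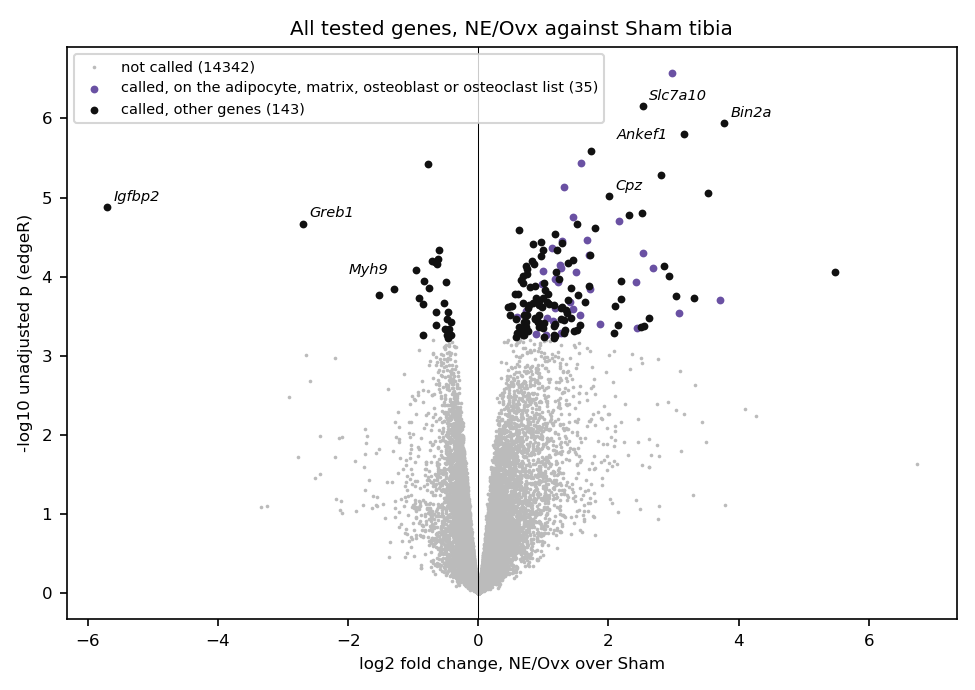
Each point is 1 of the 14520 tested genes, with the log2 fold change of NE/Ovx over Sham on the horizontal axis and −log10 of the unadjusted edgeR p on the vertical axis. Black points are the 143 called genes outside the 4 lists set aside and purple points the 35 on them, and only the black points appear among genes that fell.

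Igfbp2, a secreted protein that binds insulin-like growth factors, had the largest fall. It was at 4.67, 17.3 and 24.7 CPM in Sham rats 12, 7 and 8 and at 0.367, 0.0692 and 0.424 CPM in NE/Ovx rats 6, 8 and 9. Every NE/Ovx rat was far below the lowest Sham rat, although the Sham rats differed widely among themselves. The difference was -5.70 ± 0.73 (SE) on the log2 scale, with an adjusted p of 0.0161 by edgeR. Its size is uncertain, because the NE/Ovx rats were under 1 CPM, near the limit of detection. With all rats kept, other ways of processing gave -5.76 to -3.15. Greb1, a gene that the estrogen receptor switches on in other tissues, followed with 7.83, 13.3 and 21 CPM in Sham rats 12, 7 and 8 and 2.28, 1.8 and 2.42 CPM in NE/Ovx rats 6, 8 and 9. The log2 fold change of Greb1 was -2.69 ± 0.36 (SE), with an adjusted p of 0.0175 by edgeR. In both genes Sham rat 12 was the lowest and Sham rat 8 the highest of its group. Both lost the call without NE/Ovx rat 8 and without NE/Ovx rat 9.

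The window of 250 bases before the start of Igfbp2 is shown because no gene fell further. RefSeq places it on the plus strand of the rat build GRCr8 at chr9:81864561-81864810. Capitals mark the E-box CACGTG, at position -140 from the start. The estrogen response element, searched as GGTCA and TGACC 3 bases apart, and its single arm TGACCT were not found in this window, and Greb1 has no window in the table. Such letters are no evidence of binding, and their absence says nothing about the estrogen receptor. The search covered 300 bases, which are the 250 printed and those just after the start. Over windows of that length the full element occurs in 0.0255% of all 27457 promoters, the single arm in 15.7% and the E-box in 6.65% (8.94% for the tested genes), with both strands searched.
Igfbp2: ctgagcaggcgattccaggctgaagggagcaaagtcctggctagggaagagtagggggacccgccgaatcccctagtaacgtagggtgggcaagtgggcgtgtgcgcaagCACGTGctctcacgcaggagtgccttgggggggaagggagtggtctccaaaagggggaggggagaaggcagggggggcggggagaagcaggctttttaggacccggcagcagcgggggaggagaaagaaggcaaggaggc

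Rab27b and F2rl3, both on the megakaryocyte list, were among the other genes that fell. Rab27b, a small GTPase needed for the release of platelet dense granules, was at 204, 235 and 226 CPM in Sham rats 12, 7 and 8 and at 135, 139 and 154 CPM in NE/Ovx rats 6, 8 and 9 (-0.64 ± 0.10 SE on the log2 scale, adjusted p = 0.0238 by edgeR). F2rl3, the thrombin receptor PAR4 of platelets, was at 21.5, 24.5 and 22.3 CPM in Sham rats and 14, 12.7 and 11.9 CPM in NE/Ovx rats (-0.83 ± 0.14 SE on the log2 scale, adjusted p = 0.0265 by edgeR). The groups of both genes were far apart for the spread within them. The next genes are on none of the lists. Pde5a, which breaks down cyclic GMP, fell from 453 ± 21.8 to 296 ± 10.9 CPM (mean ± SD, n = 3), and Myh9, a non-muscle myosin heavy chain of platelets and many other cells, from 161 ± 2.43 to 82.4 ± 15.1 CPM. Gnaz, a G protein subunit known from platelets and nerve, fell by 0.53 and Nrgn, the calmodulin-binding protein neurogranin, by 0.60 on the log2 scale. Cd226, Tuba4a, Gng10 and Mrvi1 also fell, with log2 fold changes of -0.66, -0.51, -0.46 and -0.49, and were chosen after their values were seen. Cd226 is an adhesion receptor of platelets and lymphocytes, Tuba4a an alpha tubulin, Gng10 a G protein gamma subunit and Mrvi1 a target of the kinase that cyclic GMP activates.

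Among the rest of the 15 genes that fell with the smallest p, Fcar, an IgA receptor of myeloid cells, fell by 0.76 and Ska1, which ties chromosomes to the spindle, by 0.91 on the log2 scale. Prrt2, a protein of nerve endings, was low in both groups, at 9.09 ± 2.39 CPM in Sham and 3.15 ± 0.706 CPM in NE/Ovx rats. Klhdc8b was at 9.37 ± 2.11 and 3.79 ± 0.3 CPM. Ppp1r3d, which brings a phosphatase to glycogen, fell by 0.67, Rnf152, a ubiquitin ligase of the lysosome, by 0.71, and Rab18, a small GTPase of lipid droplets and the endoplasmic reticulum, by 0.50 on the log2 scale. Groups that do not overlap were a condition for naming these genes.

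Among the genes that rose outside the 4 lists, Slc7a10 had the smallest p. This carrier of small neutral amino acids, known from the surface of white fat cells, was at 1.33, 1.31 and 1.93 CPM in Sham rats 12, 7 and 8 and at 6.9, 9.68 and 9.76 CPM in NE/Ovx rats 6, 8 and 9 (2.53 ± 0.23 SE on the log2 scale, adjusted p = 0.00503 by edgeR). Ankef1, an ankyrin repeat protein, was at 5, 5.43 and 1.77 CPM in Sham and at 31.4, 44.8 and 33.3 CPM in NE/Ovx rats (3.15 ± 0.32 SE on the log2 scale, adjusted p = 0.00578 by edgeR). No NE/Ovx rat came near a Sham rat in either gene. Bin2a rose from 0.304 ± 0.123 to 4.32 ± 0.892 CPM and Lgals12, galectin-12 of lipid droplets, from 0.751 ± 0.311 to 5.38 ± 1.19 CPM. Aifm2, an oxidoreductase that keeps coenzyme Q reduced and protects membrane lipids, rose from 6 ± 1.16 to 20 ± 3.68 CPM. Enzymes of metabolism followed. Cdo1, which turns cysteine towards taurine, had a log2 fold change of 1.79, Gys2, the liver form of glycogen synthase, of 2.52, and Pex11a, which helps peroxisomes divide, of 1.52. Pck1, which makes phosphoenolpyruvate for glucose and glycerol synthesis and is also on the adipocyte list, was at 3.33, 9.14 and 2.42 CPM in Sham and at 27.2, 44.5 and 25.6 CPM in NE/Ovx rats (adjusted p = 0.024 by edgeR). Fat cell genes moved with these. The adipocyte list took 0.272% to 0.306% of the counts of the NE/Ovx rats and 0.185% to 0.227% of those of the Sham rats, 13 of its 51 tested genes rose and none fell, and none of the 53 in the files was at 0 in all rats. Adipoq, its defining hormone, was at 4.84 to 19.8 CPM in Sham and 50.5 to 71.3 CPM in NE/Ovx rats. The part of fat cells in the rise of the other genes was not tested.

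The rest of the 15 genes that rose with the smallest p had varied functions. Cpz, a carboxypeptidase that binds Wnt proteins, had a log2 fold change of 2.01 and Sphkap, an anchor of protein kinase A, of 2.31. Itga10, a collagen receptor of cartilage cells, rose from 29.3 ± 2.23 to 71.6 ± 17.4 CPM. Plxnb1, a semaphorin receptor, rose from 34.2 ± 4.82 to 61.3 ± 4.78 CPM, C1qtnf1, a hormone of the adiponectin family, from 17.6 ± 3.03 to 34.2 ± 2.12 CPM, and B4galnt3, which modifies the sugars of secreted proteins, from 7.14 ± 0.476 to 16.1 ± 2.97 CPM. Slc12a7, a potassium chloride carrier, rose by a small but even step, from 33.3 ± 1.65 to 51.6 ± 2.23 CPM.

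**Figure D2:**
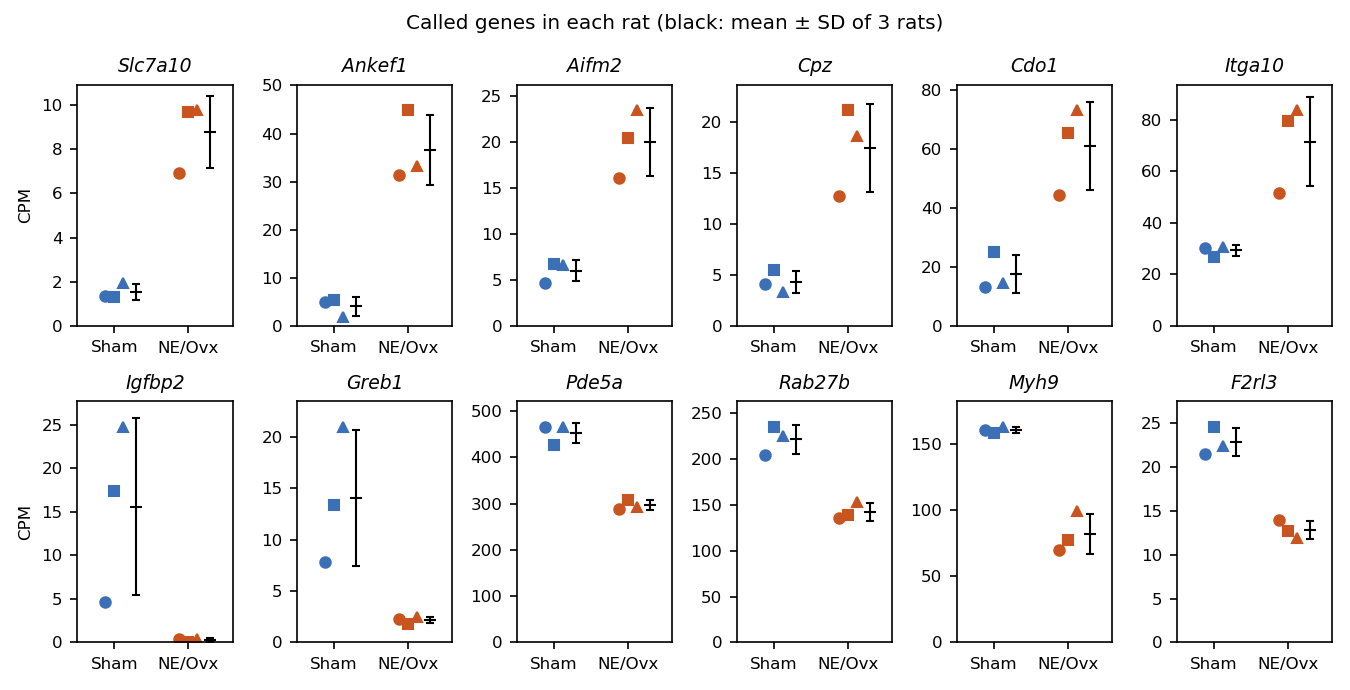
CPM of 12 called genes in each rat, with circles, squares and triangles for Sham rats 12, 7 and 8 (blue) and NE/Ovx rats 6, 8 and 9 (orange) and the mean ± SD of 3 rats in black. The groups do not overlap in any panel, which was a condition for naming the genes. The upper 6 genes rose and the lower 6 fell.

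Calls at the adjusted threshold depended on single rats because each group holds 3. Without NE/Ovx rat 8 only 7 genes were called higher and 2 lower, and without NE/Ovx rat 9 the counts were 8 and 2. Leaving out Sham rat 12 gave 24 and 16, Sham rat 7 gave 30 and 6, and NE/Ovx rat 6 gave 82 and 5. The direction of the 178 genes was the same without each rat. They had been called from these same rats, so this could hardly come out otherwise. Whichever rat was left out, 8 of them were called, among them Slc7a10, Ankef1, Bin2a, Aifm2, Lgals12 and MGC105649. The last was the only one that fell, from between 62.6 and 69.2 CPM in Sham rats to between 36.1 and 39.5 CPM in NE/Ovx rats, and was named after its values were seen. Of the 46 called genes named by rule, 41 lost the call without NE/Ovx rat 8 (adjusted p up to 0.161), 40 without NE/Ovx rat 9 (up to 0.111), 30 without Sham rat 7 (up to 0.132), 27 without Sham rat 12 (up to 0.0926), 18 without NE/Ovx rat 6 (up to 0.101) and 12 without Sham rat 8 (up to 0.0916), all by edgeR.

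Cell types were described with lists of marker genes. Among them B cell progenitors had the highest median, with a log2 fold change of 1.04 over 14 tested genes. No gene of the list passed the adjusted threshold in edgeR or limma, and 5 did in DESeq2. DESeq2 called more genes in all, 658 higher and 339 lower of 14468 tested. At the study's thresholds 10 of 14 were higher and none lower, against 11.3% of all genes. Rag1, which cuts the antibody genes for rearrangement, was at 16.2, 66.4 and 82.7 CPM in Sham rats 12, 7 and 8 and at 160, 125 and 108 CPM in NE/Ovx rats 6, 8 and 9 (log2 fold change 1.25, adjusted p = 0.152 by edgeR). Ebf1, a transcription factor that commits cells to the B lineage, was at 81.1, 124 and 196 CPM in Sham and 413, 277 and 229 CPM in NE/Ovx rats (log2 fold change 1.196, adjusted p = 0.0766 by edgeR). The NE/Ovx rats were above the Sham rats in both genes, with NE/Ovx rat 9 nearest to Sham rat 8. NE/Ovx was higher without overlap in 11 of the 14 genes (78.6%), against 13.9% of all tested genes. Pax5, which maintains B cell identity, had a log2 fold change of 1.48 and Bach2, a repressor active in B progenitors, one of 1.65. Cd93 and Erg, which other marrow and vessel cells share, were at -0.16 and -0.0024.

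Markers of the B cell receptor and of mature B cells had a median of 0.79 over 25 genes. Here 16 (64%) were higher at the study's thresholds, against 11.3% of all genes, and none lower. None passed the adjusted threshold in the main edgeR fit or limma, 2 did in edgeR without a filter, and 6 did in DESeq2. Of 14468 genes tested by DESeq2, 658 were called higher. Blnk, an adaptor of receptor signalling, was at 23.5, 46.8 and 64.4 CPM in Sham and 158, 107 and 91.7 CPM in NE/Ovx rats (log2 fold change 1.40, adjusted p = 0.0596 by edgeR). Cd79a, a signalling chain of the receptor, was at 23.5 ± 14.2 CPM in Sham and 53.6 ± 14.9 CPM in NE/Ovx rats. Members that other blood cells also use were near 0, such as Btk at -0.19, Plcg2 at 0.093 and Syk at 0.22. Plasma cells, the antibody factories at the end of the lineage, had a median of -0.03 over 11 genes. The level of the progenitor list was -1.46 in Sham rat 12 against -0.30 and 0.08 in Sham rats 7 and 8, and 0.87, 0.49 and 0.32 in NE/Ovx rats 6, 8 and 9. Without Sham rat 12 the medians of the progenitor and mature lists were 0.66 and 0.47, with 10 and 11 genes higher and 1 mature gene lower. Without NE/Ovx rat 6, the highest in both lists, they were 0.85 and 0.69, with 7 and 7 genes higher.

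**Figure D3:**
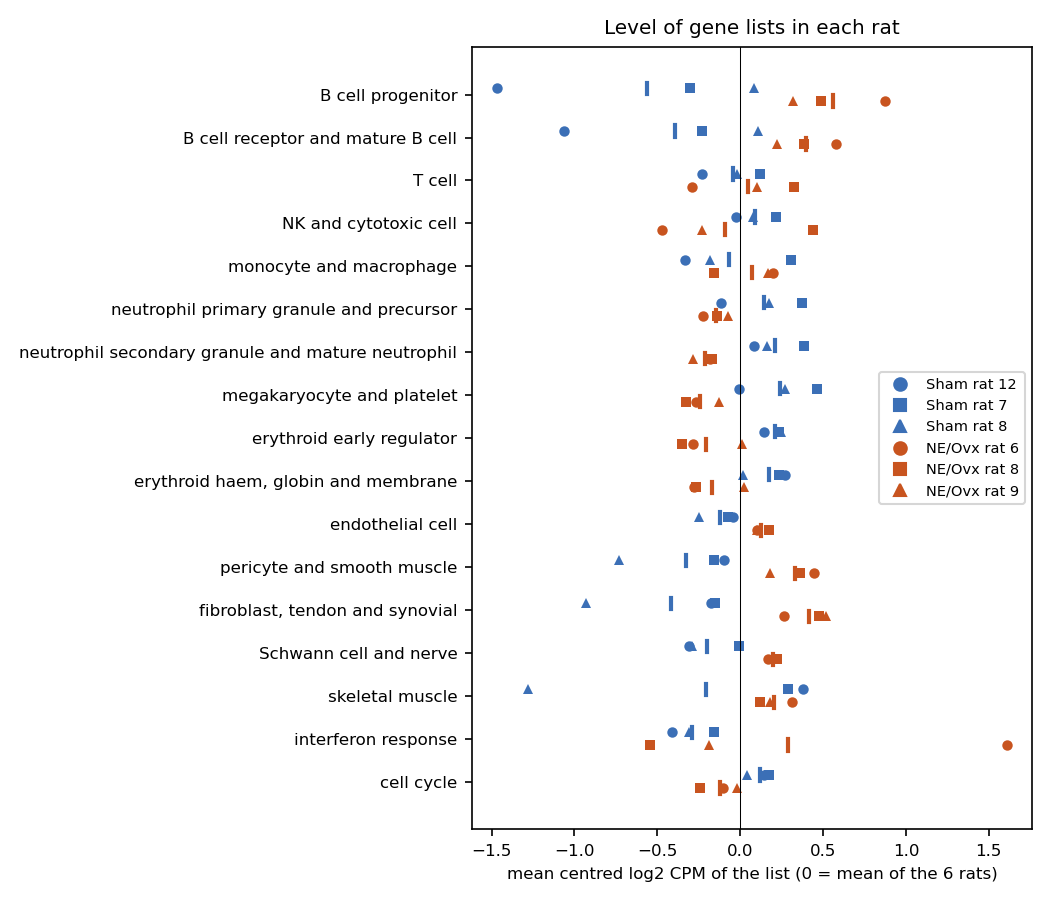
Level of 17 gene lists in each rat, as the mean over genes of log2 CPM centred on the mean of the 6 rats, with a vertical bar at each group mean. B cell lists lie higher and megakaryocyte and mature neutrophil lists lower in the NE/Ovx rats, while the raised interferon mean comes from NE/Ovx rat 6 at 1.61.

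Megakaryocyte and platelet genes had the lowest median of all lists, -0.51 over 28 genes. Rab27b and F2rl3 fell at the adjusted threshold. In DESeq2 13 genes did, where 339 of all 14468 tested genes were called lower. By the study's thresholds 19 were lower and none higher, against 6.52% of all genes. Only Rasgrp2 had a positive value, of 0.02. The list covers successive steps of the platelet's work. Among the surface receptors, F2rl2, the thrombin receptor PAR3, was at 30.7, 39.9 and 29 CPM in Sham rats 12, 7 and 8 and at 16.7, 14 and 22.1 CPM in NE/Ovx rats 6, 8 and 9 (log2 fold change -0.92, adjusted p = 0.0567 by edgeR). Gp6, the collagen receptor, was at 88.5, 132 and 123 CPM in Sham and 75.1, 70.6 and 75 CPM in NE/Ovx rats (log2 fold change -0.64, adjusted p = 0.0624 by edgeR). Clec1b, the receptor for podoplanin, was at 41.4, 71 and 49.4 CPM against 27.5, 24.4 and 36.7 CPM. All 3 receptors were lower in every NE/Ovx rat than in any Sham rat. That was so for 15 of the 28 genes (53.6%), against 11.4% of all tested genes. Itga2b, a chain of the fibrinogen receptor, was at 356 ± 18.4 CPM in Sham and 271 ± 24.8 CPM in NE/Ovx rats. The granule proteins Pf4 and Ppbp overlapped between the groups, with log2 fold changes of -0.72 and -0.81. The transcription factor Fli1 was at -0.23. The median lay between -0.67 and -0.37 and the count of lower genes between 14 and 24 without each rat in turn.

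Promoters are shown for F2rl2, Gp6, Clec1b and F2rl3, which are some but not all of the platelet surface proteins described above. Each window shown holds a GATA or ETS match, which is not true of every window of the megakaryocyte list. RefSeq windows were available for 20 of its 28 genes. The ETS motif GAGGAAG was found in 7 of these (35%), in 13.5% of the tested genes with a window and in 12.4% of all windows, and the GATA motif AGATAA in 5 (25%), in 6.36% of the tested genes and in 11.3% of all windows, with both strands searched. Early red cell genes had similar shares, ETS in 33.3% and GATA in 20% of 15 windows, as did mature neutrophil genes for ETS (30% of 20 windows). Genes of haem, globin and the red cell membrane had GATA in 20% of 20 windows but ETS in only 5%. ETS and GATA factors are known regulators of the lineage, but a match of letters is not a binding site. The lines show the 250 bases before the gene's start in GRCr8, out of the 300 searched, 5′ to 3′ along the gene, and capitals mark a GATA match in F2rl3 (chr16:17153510-17153759, minus strand, position -138, in reverse complement), Gp6 (chr1:78508258-78508507, plus strand, position -186) and Clec1b (chr4:164533859-164534108, plus strand, position -122), and an ETS match in F2rl2 (chr2:28706516-28706765, plus strand, position -172).
F2rl3: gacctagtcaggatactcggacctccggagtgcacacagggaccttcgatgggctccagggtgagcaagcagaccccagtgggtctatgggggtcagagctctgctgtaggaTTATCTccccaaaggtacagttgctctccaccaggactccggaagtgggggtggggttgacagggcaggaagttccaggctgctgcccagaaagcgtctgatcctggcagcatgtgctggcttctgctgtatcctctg
Gp6: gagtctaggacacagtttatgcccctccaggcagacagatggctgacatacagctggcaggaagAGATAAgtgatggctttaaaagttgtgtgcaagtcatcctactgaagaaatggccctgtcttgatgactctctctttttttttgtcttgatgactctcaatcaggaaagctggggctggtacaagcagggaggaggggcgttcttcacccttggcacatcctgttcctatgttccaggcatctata
Clec1b: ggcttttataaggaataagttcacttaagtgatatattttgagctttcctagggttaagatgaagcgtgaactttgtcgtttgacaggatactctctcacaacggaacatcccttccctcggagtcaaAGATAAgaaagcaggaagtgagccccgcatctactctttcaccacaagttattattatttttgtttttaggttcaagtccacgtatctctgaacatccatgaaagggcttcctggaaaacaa
F2rl2: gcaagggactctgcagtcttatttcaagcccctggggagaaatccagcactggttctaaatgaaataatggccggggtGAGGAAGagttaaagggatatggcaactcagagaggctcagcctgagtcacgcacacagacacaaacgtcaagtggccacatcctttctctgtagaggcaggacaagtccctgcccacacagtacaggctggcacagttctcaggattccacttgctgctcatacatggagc

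Mature neutrophil genes were lower to a similar degree, with a median of -0.50 over 26 genes. Of these 17 were lower and none higher at the study's thresholds, where 6.52% of all genes were lower. None passed the adjusted threshold in the main edgeR fit or limma. In DESeq2 11 did, where 339 of all 14468 tested genes were called lower. By edgeR 1 passed with median-of-ratios factors and 3 without a filter. Camp, the antimicrobial cathelicidin of secondary granules, was at 705, 914 and 783 CPM in Sham rats 12, 7 and 8 and at 528, 467 and 483 CPM in NE/Ovx rats 6, 8 and 9 (log2 fold change -0.70, adjusted p = 0.0577 by edgeR). Fpr1, a receptor for bacterial peptides, was at 53.1 ± 5.66 CPM in Sham and 32.9 ± 1.84 CPM in NE/Ovx rats (log2 fold change -0.69, adjusted p = 0.0505 by edgeR). S100a8 and S100a9, which form the abundant protein calprotectin, had log2 fold changes of -0.83 and -0.86. The groups did not overlap in these 4 genes. NE/Ovx was lower without overlap in 14 of the 26 genes (53.8%), against 11.4% of all tested genes. Mmp9, a gelatinase that osteoclasts also make, was at -0.01. Primary granule and precursor genes, which neutrophils use earlier, had a median of -0.40 with 3 of 11 lower, and -0.19 with 1 lower without Sham rat 7 or -0.55 with 7 lower without Sham rat 12.

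Red cell genes were lower too. All 18 early regulators had negative values (median -0.39), and so did 30 of 31 genes of haem, globin and the red cell membrane (median -0.33). At the study's thresholds 9 (50%) and 12 (38.7%) were lower and none higher, against 6.52% of all genes. None passed the adjusted threshold in edgeR or limma. In DESeq2 2 of each list did, where 339 of all 14468 tested genes were called lower. Tal1, a transcription factor of stem cells and the red cell lineage, was at 767, 622 and 607 CPM in Sham rats 12, 7 and 8 and at 386, 437 and 473 CPM in NE/Ovx rats 6, 8 and 9 (log2 fold change -0.62, adjusted p = 0.069 by edgeR). Every NE/Ovx rat was lower in Tal1, with NE/Ovx rat 9 nearest to the Sham rats. The level of the haem, globin and membrane list overlapped between the groups, at 0.023 in NE/Ovx rat 9 and 0.015 in Sham rat 8. Tfrc, which takes up iron bound to transferrin, had a log2 fold change of -0.47 and Klf1, which switches on adult globin, of -0.45. Gata1 had the largest negative value, -2.18, but rested on Sham rat 8, with 7.33 CPM there and 0.333 to 1.1 CPM in the other rats. These counts were sensitive to single rats. Without NE/Ovx rat 9 they were 12 and 17, but 2 and 3 without NE/Ovx rat 6, 2 and 2 without NE/Ovx rat 8, 4 and 6 without Sham rat 7, and 7 and 7 without Sham rat 12. By limma on log2(FPKM + 1) 5 haem, globin and membrane genes, 12 megakaryocyte genes and 10 mature neutrophil genes were lower by the same thresholds.

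Stem cell and proliferation genes were lower by smaller amounts. The stem and progenitor list had a median of -0.25, with 6 of 19 genes lower by the study's thresholds (31.6% against 6.52% of all genes), and -0.11 without Sham rat 7. Prom1, a surface protein of progenitors, was at 110 ± 1.9 CPM in Sham and 82.5 ± 5.55 CPM in NE/Ovx rats. Of 42 cell cycle genes 41 had negative values (median -0.24) and 14 (33.3%) were lower. Ccne1, the cyclin that starts DNA replication, was at 98, 90.9 and 89.4 CPM in Sham and 56.4, 59 and 71.9 CPM in NE/Ovx rats (log2 fold change -0.57, adjusted p = 0.0634 by edgeR). Ska1, called above, was on none of the lists. The count of lower cell cycle genes varied with single rats, and was 7 when NE/Ovx rat 8 was left out, 9 for Sham rat 7 and 22 for NE/Ovx rat 9. None of either list passed the adjusted threshold in edgeR or limma. In DESeq2 3 and 4 did, where 339 of all 14468 tested genes were called lower.

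**Figure D4:**
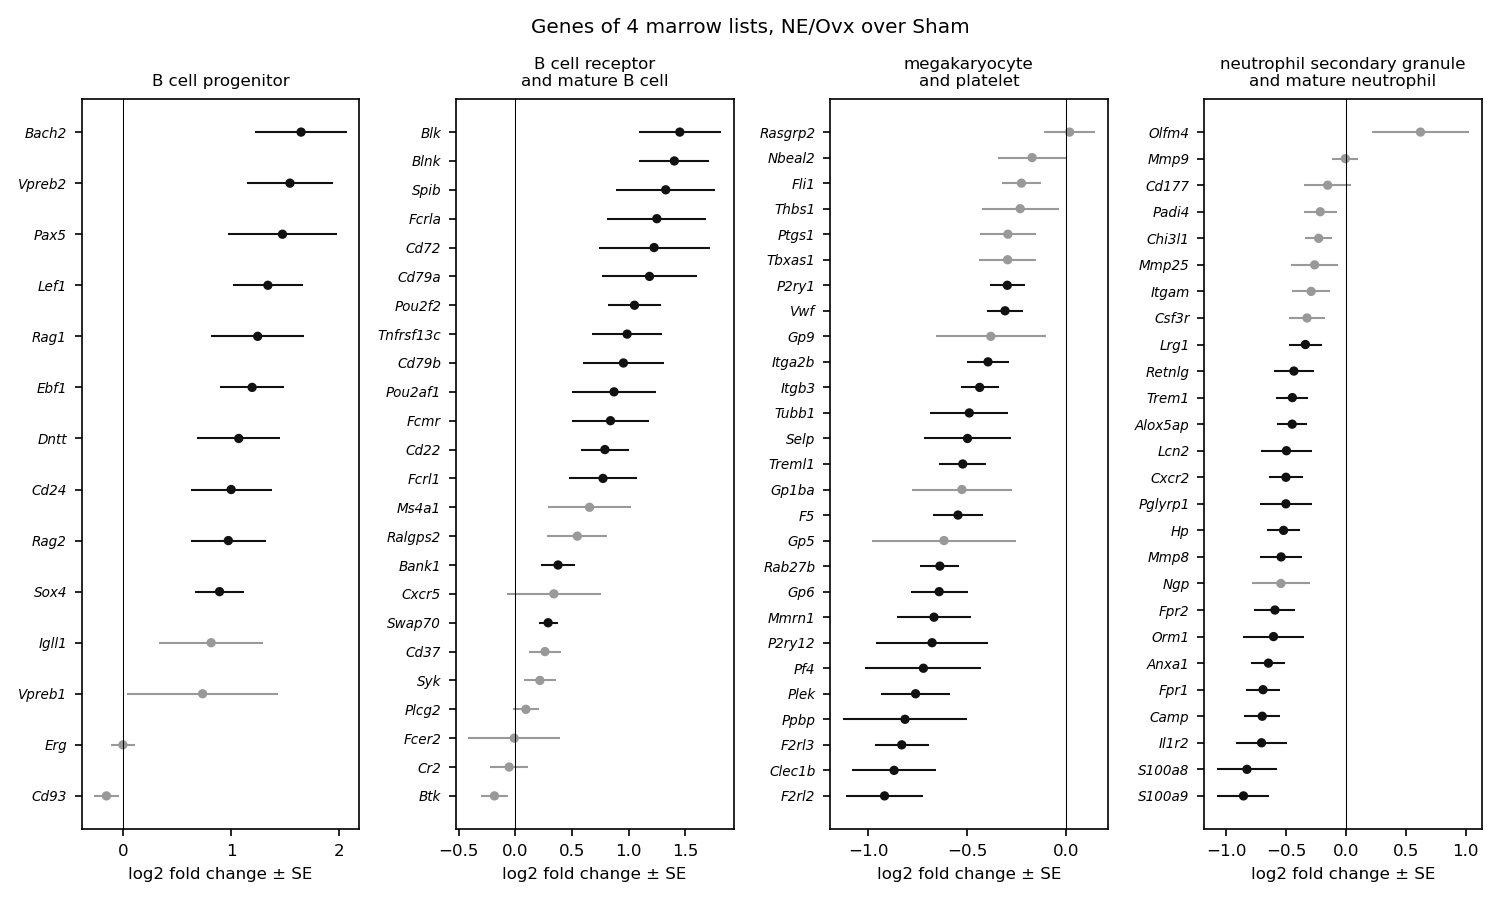
log2 fold change of NE/Ovx over Sham with its standard error for genes of 4 marrow lists, 2 tested genes not being drawn, in black where it met the study's thresholds. Most B cell genes lie right of 0, whereas all megakaryocyte genes drawn but Rasgrp2 and 25 of 26 mature neutrophil genes lie left of it.

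Other immune cells showed no common direction. Over all tested genes 11.3% were higher and 6.52% lower by the study's thresholds. T cell genes had a median of 0.11 (1 of 25 higher and 2 lower by the study's thresholds), natural killer genes of -0.06 (2 of 15 lower), dendritic cell genes of 0.01 (3 of 15 higher and 1 lower) and monocyte and macrophage genes of 0.13 (3 of 27 higher and 4 lower). Leaving out NE/Ovx rat 8 moved the natural killer median to -0.49, and leaving out NE/Ovx rat 6 moved it to 0.25. Icos, a costimulator of activated T cells, was at 3.98 ± 0.41 CPM in Sham and 2.33 ± 0.161 CPM in NE/Ovx rats. Tcf4, a transcription factor of plasmacytoid dendritic and other cells, was at 38.8 ± 2.34 and 60.7 ± 1.15 CPM (log2 fold change 0.65, adjusted p = 0.0596 by edgeR). F13a1, the clotting factor chain of monocytes and platelets, was at 261 ± 45.6 and 172 ± 21.7 CPM. Genes for antigen presentation by MHC class II had a median of -0.03 over 10 genes, and those of eosinophils, basophils and mast cells of -0.09 over 18.

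Interferon response genes had the second highest median, 0.82 over 36 genes, but 1 rat carried it. The list level was 1.61 in NE/Ovx rat 6 and between -0.55 and -0.15 in the other rats. Mx1, an antiviral GTPase, was at 203 CPM in that rat and at 8.91 to 22.9 CPM in the rest. Irf7, the factor that amplifies the response, was at 514 CPM against 37.1 to 90.5 CPM. Without NE/Ovx rat 6 the median was -0.11 and no gene met the study's thresholds. With all rats 9 (25%) had been higher, against 11.3% of all genes. Leaving out each other rat gave 3 to 17 higher genes. None passed the adjusted threshold in edgeR, DESeq2 or limma.

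All 22 pericyte and smooth muscle genes had positive values, with a median of 0.50. The list level was -0.73 in Sham rat 8, also low in skeletal muscle genes, against -0.099 and -0.16 in Sham rats 12 and 7. Des stands on both lists. Without each rat in turn the median lay between 0.44 and 0.64. Aoc3, a surface amine oxidase of smooth muscle and fat cells, was at 37.7, 33.1 and 18.8 CPM in Sham rats 12, 7 and 8 and at 78.9, 81.3 and 79.2 CPM in NE/Ovx rats 6, 8 and 9 (1.42 ± 0.24 SE on the log2 scale, adjusted p = 0.0281 by edgeR). Mcam, an adhesion molecule of pericytes and marrow stromal cells, was at 19, 15 and 13.1 CPM in Sham and 32.2, 36.5 and 30.8 CPM in NE/Ovx rats (1.08 ± 0.19 SE on the log2 scale, adjusted p = 0.0331 by edgeR). The NE/Ovx rats were close together in both genes and well above the Sham rats. These 2 genes rose at the adjusted threshold, and 9 were higher and none lower by the study's thresholds, or 5 without Sham rat 8, against 11.3% and 6.52% of all genes. Cspg4, the pericyte proteoglycan NG2, was at 41.6 ± 5.94 CPM in Sham and 81.2 ± 10.3 CPM in NE/Ovx rats, while Acta2, smooth muscle actin, overlapped (log2 fold change 0.9995, adjusted p = 0.237 by edgeR). Endothelial genes had a smaller median of 0.20 over 39 genes. By the study's thresholds 6 were higher (15.4%, near the 11.3% of all genes) and 1 lower. None were called by edgeR or limma. DESeq2 called 4 of them higher and 1 lower, and 658 and 339 of all 14468 tested genes. Pecam1, a junction protein of all endothelium, was at 45.3 ± 1.85 and 67.3 ± 6.95 CPM (adjusted p = 0.0993 by edgeR), whereas Bmx, a kinase of arterial endothelium and myeloid cells, was at 48.9 ± 3.57 and 32.1 ± 2.19 CPM. Emcn and Kdr, of the bone's sinusoids and capillaries, were both at 0.03.

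Fibroblast, tendon and synovial genes had a median of 0.78 over 27 genes, with 11 higher (40.7% against 11.3% of all genes) and none lower by the study's thresholds. Sham rat 8 had a list level of -0.93, whereas Sham rats 12 and 7 had -0.17 and -0.15, and without that rat the median was 0.54 with 8 higher. Cthrc1, a secreted protein of active fibroblasts, was at 5.38 ± 0.203 CPM in Sham and 13.3 ± 4.55 CPM in NE/Ovx rats (adjusted p = 0.069 by edgeR). None passed the adjusted threshold in edgeR or limma. In DESeq2 7 did, where 658 of all 14468 tested genes were called higher. Several members also belong to bone matrix, whose list was higher as well, with 19 of 104 genes risen. Skeletal muscle genes had a median of 0.25 and no gene at the study's thresholds, and -0.12 without Sham rat 8. Of the nerve genes S100b, a calcium-binding protein of Schwann cells, cartilage and fat cells, rose from 16.9, 21.2 and 20.6 CPM to 34.7, 39 and 42.8 CPM (0.99 ± 0.19 SE on the log2 scale, adjusted p = 0.0427 by edgeR). The median of this list was 0.49 over 17 genes, with 1 higher and 1 lower by the study's thresholds, and 0.29 without Sham rat 8.

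In the Wnt pathway a minority of genes was higher. Wnt proteins act through Fzd receptors and the coreceptors Lrp5 and Lrp6, R-spondins and Lgr receptors strengthen them, and Dkk and Sfrp proteins block them. Of 48 Wnt genes 4 rose and none fell, the median was 0.42, and 15 were higher and 1 lower by the study's thresholds. Over all tested genes 1.03% rose, and 11.3% were higher and 6.52% lower by those thresholds. Bone matrix and osteoblast genes moved with this and the following pathways, with medians of 0.81 and 0.56, and the matrix list took 3.29% to 4.84% of the counts of NE/Ovx rats and 1.74% to 2.02% of those of Sham rats. Their part was not tested. Lrp5 was at 45.3, 47 and 49.4 CPM in Sham rats 12, 7 and 8 and at 64.2, 80.7 and 82.8 CPM in NE/Ovx rats 6, 8 and 9 (0.69 ± 0.12 SE on the log2 scale, adjusted p = 0.0331 by edgeR). Lgr4 was at 22.7 ± 1.58 CPM in Sham and 34.7 ± 3.46 CPM in NE/Ovx rats (adjusted p = 0.0308 by edgeR). Nkd2, an inhibitor inside the cell, rose from 21.4 ± 1.73 to 34.3 ± 3.1 CPM and Wisp1, a matrix protein that Wnt signals induce, from 6.34 ± 1.5 to 15.3 ± 4.31 CPM. Members with opposite roles were therefore among the genes that rose. Axin2, a common target gene, was at 0.22 (adjusted p = 0.506 by edgeR), Ctnnb1, which encodes beta-catenin, at 0.01 and the osteocyte inhibitor Sost at -0.60 (adjusted p = 0.435 by edgeR). The median was 0.26 without Sham rat 8.

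In the TGF-beta and BMP pathway 18 of 47 genes (38.3%) were higher and 3 (6.4%) lower by the study's thresholds, with a median of 0.36. Over all tested genes 11.3% were higher and 6.52% lower. Smad1, which carries BMP signals to the nucleus, was the gene that rose, from 27.7, 29.6 and 35.9 CPM in Sham to 53.8, 49 and 51.6 CPM in NE/Ovx rats (0.73 ± 0.11 SE on the log2 scale, adjusted p = 0.0239 by edgeR). The count of higher genes was 11 without NE/Ovx rat 9. Of 36 FGF and VEGF genes 12 (33.3%) were higher and 1 lower, with a median of 0.32. Klb, the coreceptor through which FGF21 acts on fat cells, rose from 0.383 ± 0.0433 to 2.98 ± 1.44 CPM, with 1.32 CPM in NE/Ovx rat 6 and 3.67 and 3.94 CPM in NE/Ovx rats 8 and 9. Angpt2, a vessel growth factor, rose from 8.28 ± 0.682 to 14.9 ± 2.66 CPM (adjusted p = 0.0331 by edgeR). Lfng, a glycosyltransferase that modifies Notch, rose from 47.2 ± 4.93 to 69.4 ± 1.4 CPM in a list with a median of 0.22 over 24 genes. In the hedgehog and parathyroid hormone list 6 of 22 genes (27.3%) were higher and 1 lower (median 0.30).

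Lists of hormone pathways had medians between -0.01 and 0.16. Of the 23 estrogen genes Greb1 fell, and 4 were higher and 3 lower by the study's thresholds (median 0.16). At the same thresholds 11.3% of all tested genes were higher and 6.52% lower. Esr1, the estrogen receptor alpha, was at 12, 15.3 and 14.7 CPM in Sham rats 12, 7 and 8 and at 15.4, 21.4 and 16.8 CPM in NE/Ovx rats 6, 8 and 9 (log2 fold change 0.35, adjusted p = 0.307 by edgeR). Pgr, the progesterone receptor, which estrogen induces in the uterus, was at 1.19 ± 0.602 CPM in Sham and 2.9 ± 0.431 CPM in NE/Ovx rats, the opposite direction to Greb1 (adjusted p = 0.113 by edgeR). Of 26 growth hormone and IGF genes Igfbp2 fell and Ghr, the growth hormone receptor, rose from 38.3, 49 and 29.7 CPM to 62.8, 76.4 and 74.8 CPM (0.87 ± 0.16 SE on the log2 scale, adjusted p = 0.0386 by edgeR). By the study's thresholds 6 (23.1%) were higher and 2 lower, with a median of 0.14. Igf1 overlapped between the groups at 79.2 ± 23.1 and 92.3 ± 8.68 CPM. Foxo1, which insulin holds out of the nucleus, rose from 28 ± 6.35 to 56.7 ± 9.73 CPM (adjusted p = 0.0403 by edgeR), in an insulin list with a median of 0.04 over 25 genes. Pck1 also rose in this list, 6 genes (24%) were higher and 1 lower by the study's thresholds, and the list level was higher in every NE/Ovx rat than in any Sham rat. Glucocorticoid response genes had a median of 0.03 over 20 genes and clock genes of -0.01 over 20. Npas2 and Dbp, a driver and an output of the clock, were at 1.70 and -0.93 (adjusted p = 0.11 and 0.082 by edgeR).

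Inflammatory genes changed little as groups. The cytokines linked to estrogen deficiency had a median of -0.06 over 20 tested genes, and the other listed genes were too low to test or not in the files. Il1rn, the natural blocker of interleukin 1, was at 67.9, 63.1 and 65.4 CPM in Sham and 48.2, 48.4 and 38.9 CPM in NE/Ovx rats (log2 fold change -0.53, adjusted p = 0.117 by edgeR). Chemokines and their receptors had a median of 0.05 over 32 genes. Ccl9 rose, but from 0.211 ± 0.107 to 1.54 ± 0.382 CPM, near the limit of detection. C4b, a complement component, rose from 33.3, 31.5 and 20.9 CPM to 132, 62.3 and 71.5 CPM (1.63 ± 0.29 SE on the log2 scale, adjusted p = 0.0331 by edgeR), highest in NE/Ovx rat 6, in a complement and coagulation list with a median of 0.15 over 33 genes.

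Medians of the lists for basic metabolism and cell upkeep were -0.13 for 42 genes of oxidative phosphorylation, 0.13 for 26 of fatty acid oxidation, 0.10 for 35 of glycolysis and hypoxia, 0.02 for 30 of cholesterol synthesis and uptake, -0.09 for 34 of protein folding, -0.08 for 22 heat shock genes, -0.15 for 37 of the ribosome and -0.30 for 20 histone genes. Among all of these P4ha2, which hydroxylates collagen and is also on the matrix list, rose from 11 ± 0.796 to 20.3 ± 3.74 CPM (adjusted p = 0.0458 by edgeR). No other gene passed the adjusted threshold in the main edgeR fit. Histone genes had 1 member at the study's thresholds, and their median was -0.05 without Sham rat 7. By these thresholds 11.3% of all tested genes were higher and 6.52% lower. Of 20 aging genes 6 (30%) were higher and 1 lower with a median of -0.08. Of 25 immediate early genes 5 (20%) were higher and 2 (8%) lower with a median of 0.32. Their median was 0.078 with 1 higher and 3 lower when NE/Ovx rat 9 was left out. It was 0.20 with 1 higher for Sham rat 8 and 0.20 with 3 higher for Sham rat 7. Of 21 stromal niche genes 4 (19.0%) were higher and 2 (9.5%) lower with a median of 0.02. Osteocyte and phosphate genes had a median of 0.34 over 13 genes with 5 higher (38.5%), and -0.01 with 2 higher without NE/Ovx rat 9.

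**Figure D5:**
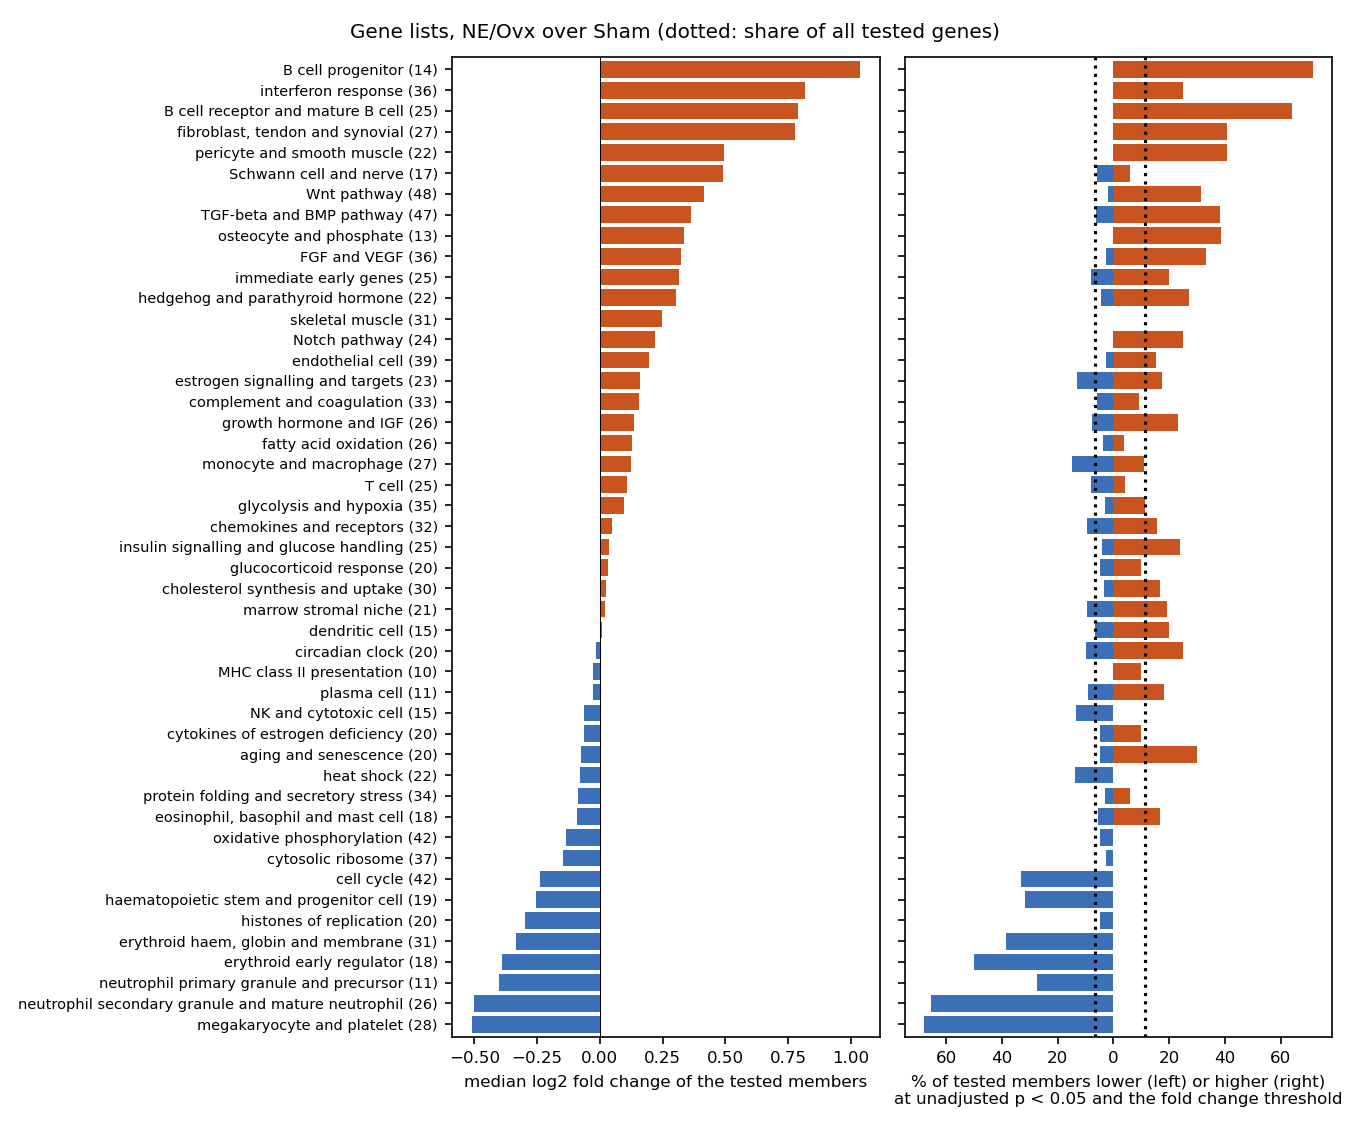
Left, median log2 fold change of NE/Ovx over Sham for the 47 lists outside those set aside, with the number of tested genes in parentheses. Right, the share of each list lower and higher at the study's thresholds, with dotted lines at 6.52% and 11.3%, the shares over all tested genes. Medians run from -0.51 for megakaryocytes to 1.04 for B cell progenitors.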

How the data were processed

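RNA-seq libraries of 6 rat tibias (Sham and NE/Ovx, 3 rats each) were compared, and 3 RE/Ovx libraries shared the fit. Per the submitters' processing notes, reads were trimmed with Trimmomatic and processed with HISAT2, StringTie, Bowtie2 and DESeq on Rnor_6.0. Versions and the strand setting of the counting are not given in the sources used here, so overlapping and antisense genes, and near-identical copies, may share reads. For each rat the authors deposited, gene by gene, the raw read count (whole numbers) and the FPKM value. The study tested counts with DESeq2.

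Counts were fitted with edgeR 4.0.16 in R 4.3.3 (TMM, filter on low counts, quasi-likelihood test, group as the only term, all 9 libraries), and p-values were adjusted by Benjamini and Hochberg over 14520 genes. CPM is the count scaled to the effective library size. The SE of a log2 fold change was derived from the test, as its unshrunk absolute value divided by the square root of the F statistic. It is therefore no measure of spread independent of the p-value. The level of a list is the mean centred log2 CPM of its genes, after adding a prior count of 2. The script was tested on simulated data. Alternatives were DESeq2 1.42.0, limma 3.58.1 on log2(FPKM + 1) and log2(FPKM + 0.1), scaling by median-of-ratios factors or by library totals, testing without a filter or with at least 10 counts in each library, fitting the 6 libraries alone, and leaving out each rat.

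The comparison and the 51 gene lists were chosen with earlier results of these data known, and the lists were written from general knowledge. Genes were named by rule: the 15 higher and 15 lower with the smallest p among called genes with non-overlapping groups, a mean of at least 1 CPM, on none of the 4 lists set aside and without a clone or locus name; for each list up to 3 called members, or the 2 with the smallest p; and Gapdh. Other members of the lists named in the text serve to describe the list's range and were chosen after their values were seen. Promoter windows are those of RefSeq on GRCr8, matched by symbol or synonym for 11159 tested genes; no other coordinates of that build were used. Counts limit precision for genes under about 1 CPM. Body weight, micro-CT, biomechanical, ELISA and RT-qPCR results of the study were not used. Results for 2 genes of the lists are not reported here, though both count in the list totals.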

Additional observations from a re-analysis of the deposited data

How the results depend on the processing

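The counts of called genes moved most. Higher and lower calls were 658 and 339 by DESeq2, 96 and 16 by limma on log2(FPKM + 1), and 18 were lower by limma on log2(FPKM + 0.1). Leaving out 1 rat at a time gave 7 to 160 higher and 2 to 21 lower calls. At the study's thresholds the lower count was 626 by limma on log2(FPKM + 1), and 738 to 1293 without 1 rat. The median over all genes stayed between -0.011 and 0.044 on the log2 scale in every setting. The 178 called genes kept their direction in every setting that measured them, which was all but 1 by edgeR on the 6 libraries and 158 with at least 10 counts in each library. Because they were called from the same rats, this was nearly fixed in advance. Among the genes named by rule, Gapdh alone changed sign, with -0.092 when Sham rat 8 was left out against up to 0.32 over the other settings.

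Some list medians moved by more than the spread between rats. By limma on log2(FPKM + 1) they were 0.20 for nerve, -0.12 for stem and progenitor and 0.25 for Wnt genes, and by limma on log2(FPKM + 0.1) -0.16 for stem and progenitor genes. With at least 10 counts in each library they were 0.20 for dendritic, -0.29 for eosinophil, basophil and mast cell and 0.35 for nerve genes. Scaled to library totals, Notch genes had 0.26. Over the 6 fits that each left out 1 rat, medians ranged from 0.18 to 0.26 for Notch, -0.033 to 0.25 for dendritic, 0.29 to 0.50 for nerve, -0.31 to -0.11 for stem and progenitor, 0.26 to 0.52 for Wnt, 0.16 to 0.29 for endothelial, -0.18 to 0.18 for stromal niche, -0.098 to 0.021 for cytokine, -0.066 to 0.069 for cholesterol, -0.55 to -0.19 for primary granule, -0.035 to 0.25 for chemokine, -0.084 to 0.17 for glycolysis, -0.11 to 1.118 for interferon, -0.49 to 0.25 for natural killer, -0.56 to -0.32 for early red cell, 0.24 to 0.40 for TGF-beta and BMP and -0.010 to 0.51 for osteocyte genes. The causes were not tested. No paired analysis was run, because the groups hold different rats assigned at random and a shared rat number is not a pairing.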
